A study of Mus musculus with 6 samples.

Results

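Nr1d1 and 9 further genes of the circadian clock were examined in fibroblasts sorted from mouse synovium, the membrane that lines the joint cavity. The 10 genes were Nr1d1, Nr1d2, Dbp, Tef, Per1, Per2, Per3, Arntl, Cry1 and Ciart. They were selected by name, on earlier results of this same comparison in these libraries, so their differences between the groups are given as a description and support nothing. All 10 were among the 24348 genes of the count table, and all 10 were among the 19925 genes tested.

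RNA sequencing had been carried out on 6 libraries of fibroblasts from adult wild-type C57BL/6 mice, 3 labelled IC and 3 labelled as vehicle controls. ICs are immune complexes, antibody bound to its antigen, and in the study they were made from ovalbumin and rabbit anti-ovalbumin serum and injected into the tail vein. Whether each library came from 1 mouse, the interval between injection and dissection and the hour of dissection are not given in the sources used here, so p-values measure only the spread between these libraries. Libraries held 40114331 to 56714304 counts, of which the 10 clock genes took 0.0506 to 0.0601%. All 8 fibroblast markers were present, with a summed level of 32478 to 33515 CPM (counts scaled to the library total) in IC and 31648 to 38195 CPM in vehicle libraries, most of it from the collagen genes Col1a1 and Col1a2. Of the 8, DESeq2 called Prg4, a marker of the synovial lining, higher in IC (log2 fold change 0.94, adjusted p = 0.0103). It called Lum lower (−0.36, adjusted p = 0.00250), where 2.10% of all tested genes were called. Neither marker passed in edgeR (edgeR adjusted p = 0.0541 for Prg4 and 0.135 for Lum). The part of these marker differences in the clock gene values was not tested.

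The clock of mammalian cells is a feedback loop of transcription. BMAL1, encoded by Arntl, pairs with CLOCK and activates genes that carry E-boxes, among them the Per and Cry genes, whose proteins then repress the pair. BMAL1 and CLOCK also drive Nr1d1 and Nr1d2, which encode the heme-binding nuclear receptors REV-ERB alpha and REV-ERB beta, and these repress Arntl and, in macrophages and fibroblasts, several inflammatory genes. DBP and TEF activate genes through D-boxes, and CIART is a further repressor of BMAL1 and CLOCK.

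Nr1d1 was the clock gene with the widest gap between the groups. Its normalised read count, the count divided by the size factor of the library, was 2001, 2007 and 1815 in IC replicates 1 to 3 and 1262, 1344 and 971.5 in vehicle replicates 1 to 3. Every IC library lay above every vehicle library, and vehicle replicate 3 was the lowest of the 6. The means were 1941 ± 109 (SD, n = 3) and 1193 ± 196 (SD, n = 3), a 1.63-fold difference (log2 fold change 0.70, standard error, SE, 0.14). With each library left out in turn the log2 fold change ran from 0.58 to 0.80. Nr1d1 lies on chromosome 11 of GRCm38 (chr11:98767932-98775333, minus strand), where 263 bases of its exons (8.55%) overlap exons of Thra, a thyroid hormone receptor gene on the opposite strand. Because the strand setting of the counting is not given in the sources used here, reads from these bases cannot be told apart. Thra itself, looked at after its values were seen, had normalised counts of 7315, 7173 and 7465 in IC and 6559, 8225 and 8072 in vehicle libraries, and its log2 fold change was −0.06 (SE 0.096).

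Nr1d2, the close relative of Nr1d1, had a higher mean in IC libraries, with groups that overlapped. Its normalised counts were 3829, 4271 and 4020 in IC and 4101, 2904 and 3113 in vehicle libraries. Vehicle replicate 1 stood within the IC range, whereas the other two vehicle libraries were below it. The log2 fold change was 0.26 (SE 0.12). Leaving out vehicle replicate 1 gave 0.42, and leaving out vehicle replicate 2 gave 0.16. In each IC library Nr1d1 had 0.451 to 0.523 counts per Nr1d2 count, and in vehicle libraries 0.308, 0.463 and 0.312, so that vehicle replicate 2 lay inside the IC range. The bases before the RefSeq starts of both genes (build GRCm38.p6, printed 5′ to 3′) are shown because clock factors bind their targets at short motifs in promoters, and capitals mark matches to the motifs searched.
Nr1d1, chr11:98775378-98775627, minus strand: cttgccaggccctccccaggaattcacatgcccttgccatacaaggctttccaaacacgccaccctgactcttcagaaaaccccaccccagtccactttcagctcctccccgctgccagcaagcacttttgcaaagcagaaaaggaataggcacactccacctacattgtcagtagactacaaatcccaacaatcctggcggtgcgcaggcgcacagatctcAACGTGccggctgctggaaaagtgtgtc
Nr1d2, chr14:18239128-18239356, minus strand: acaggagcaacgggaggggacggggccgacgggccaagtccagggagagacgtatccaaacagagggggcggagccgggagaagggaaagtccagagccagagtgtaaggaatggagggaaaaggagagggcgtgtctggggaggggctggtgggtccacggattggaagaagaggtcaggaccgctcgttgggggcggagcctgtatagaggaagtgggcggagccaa
The Nr1d1 stretch held 1 match, AACGTG, the other strand of the E-box variant CACGTT, which began 28 bases before the RefSeq start. That start lies outside the bounds given above for Nr1d1, so the match is farther from those bounds. The Nr1d2 stretch, printed without the last 21 bases before its RefSeq start because another transcript covers them, held none of the 5 motifs searched.

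**Figure D1:**
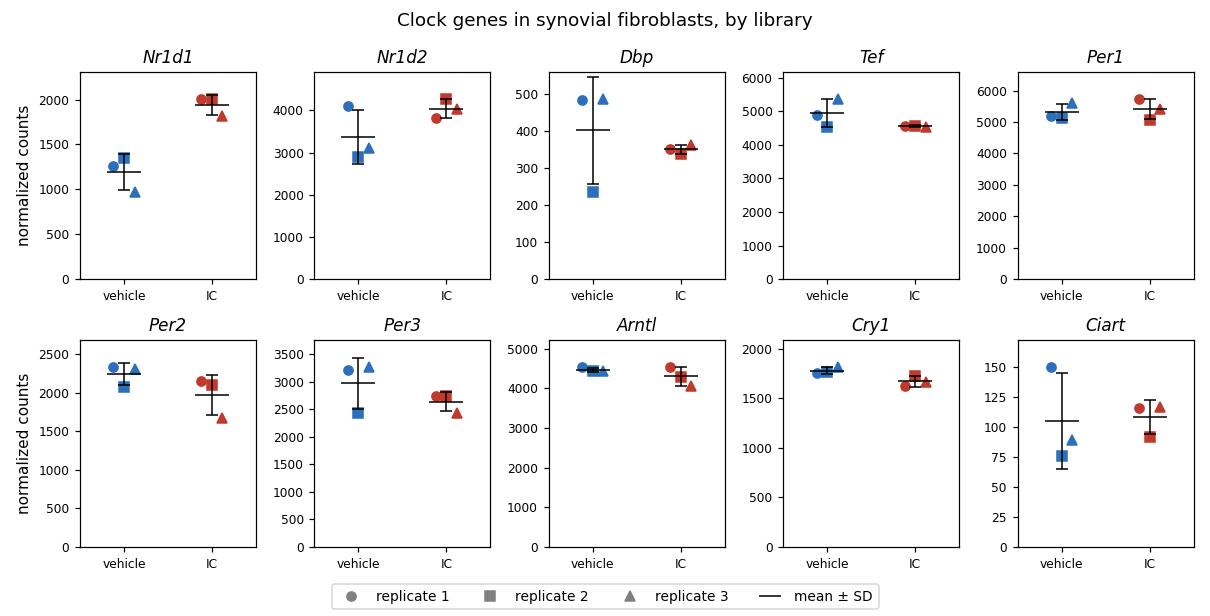
Normalised read counts of the 10 clock genes (y axis, from 0) in the 3 vehicle and 3 IC libraries, 1 panel per gene; symbols mark the replicate number, and the lines show the mean ± SD of 3 libraries. The groups lie apart only for Nr1d1, higher in IC, and for Cry1, lower in IC by a small margin.

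Arntl, which encodes the activator BMAL1 and is the best known target of REV-ERB repression, was nearly level between the groups. It had 4548, 4293 and 4067 normalised counts in IC and 4533, 4443 and 4447 in vehicle libraries. The vehicle libraries lay inside the IC range, and the log2 fold change was −0.06 (SE 0.084), with a 95% interval from −0.22 to 0.11. It was −0.099 without IC replicate 1 and −0.017 without IC replicate 3. Within each library the ratio of Nr1d1 to Arntl counts was 0.440, 0.468 and 0.446 in IC and 0.278, 0.303 and 0.218 in vehicle libraries, which kept the groups apart.

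Among the repressors of the loop, the 3 Per genes did not share a direction. Per1, whose transcription responds quickly to hormones and to cyclic AMP, had 5738, 5081 and 5426 normalised counts in IC and 5209, 5123 and 5608 in vehicle libraries. Its log2 fold change was 0.028 (SE 0.086), or −0.017 without IC replicate 1, and the groups overlapped. Per2, which sets the period of the clock together with Per1, had 2148, 2102 and 1675 in IC and 2338, 2080 and 2305 in vehicle libraries. IC replicate 3 was the lowest of the 6, and the log2 fold change of −0.18 (SE 0.12) became −0.08 without it. Per3 had 2739, 2739 and 2437 in IC and 3204, 2429 and 3271 in vehicle libraries, with a log2 fold change of −0.17 (SE 0.12). Here vehicle replicate 2 was the lowest library, and the other two vehicle libraries were the highest. Without vehicle replicate 2 the log2 fold change of Per3 was −0.29, and without vehicle replicate 3 it was −0.094. The 250 bases before the Per3 start are shown because they held both D-box matches found in the clock genes.
Per3, chr4:151044666-151044915, minus strand: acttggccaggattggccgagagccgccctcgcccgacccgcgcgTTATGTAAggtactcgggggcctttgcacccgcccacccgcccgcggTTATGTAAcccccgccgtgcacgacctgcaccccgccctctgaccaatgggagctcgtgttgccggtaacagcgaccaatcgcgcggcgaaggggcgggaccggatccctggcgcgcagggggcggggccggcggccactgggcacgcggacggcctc
The capitals mark TTATGTAA, a form of the D-box TTANGTAA, beginning 205 and 158 bases before the start.

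Cry1, a partner of the PER proteins in repression, was the other gene whose groups did not overlap, with every IC library lower. It had 1620, 1730 and 1662 normalised counts in IC and 1751, 1770 and 1819 in vehicle libraries. The gap between the highest IC and the lowest vehicle library was small, and the log2 fold change was −0.09 (SE 0.10) with a 95% interval from −0.29 to 0.11. Ciart, the least abundant of the 10, had 115.7, 92.0 and 116.5 in IC and 150.1, 75.6 and 88.8 in vehicle libraries. The vehicle libraries enclosed the IC libraries. The log2 fold change of 0.04 (SE 0.38) had a 95% interval from −0.70 to 0.78, and leaving out single libraries moved it from −0.15 (vehicle replicate 2) to 0.40 (vehicle replicate 1). The bases before the Ciart start are shown because they carried the most E-boxes of any of the genes.
Ciart, chr3:95882252-95882478, minus strand: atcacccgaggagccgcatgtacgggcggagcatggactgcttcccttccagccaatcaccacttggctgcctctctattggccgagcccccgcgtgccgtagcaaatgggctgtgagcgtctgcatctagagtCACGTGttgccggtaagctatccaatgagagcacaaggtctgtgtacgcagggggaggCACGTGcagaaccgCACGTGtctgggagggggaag
The capitals mark CACGTG, beginning 116, 58 and 44 bases before the RefSeq start, which lies 23 bases beyond the printed stretch.

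The D-box activators Dbp and Tef, which BMAL1 and CLOCK also drive, had lower means in IC libraries. Dbp, an output gene that usually has a strong daily rhythm, had 350.4, 338.0 and 362.0 normalised counts in IC and 482.9, 234.3 and 486.4 in vehicle libraries. The IC libraries fell between vehicle replicate 2 and the other two vehicle libraries. The log2 fold change was −0.20 (SE 0.26), and leaving out vehicle replicate 2 or vehicle replicate 3 gave −0.47 and −0.035. Dbp shares 539 exon bases (18.0%) with Sphk2 on the opposite strand, so the same doubt about strand applies. Tef had 4571, 4577 and 4527 in IC and 4905, 4544 and 5372 in vehicle libraries, and its log2 fold change of −0.12 (SE 0.089) was −0.052 without vehicle replicate 3. Nr1d1 counts per Dbp count were 5.71, 5.94 and 5.01 in IC and 2.61, 5.74 and 2.00 in vehicle libraries, so vehicle replicate 2 resembled the IC libraries in this ratio.

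Of the 10 clock genes, 1, Nr1d1, passed an adjusted p of 0.05 in DESeq2, where 2.10% of all tested genes passed in either direction and 1.03% were higher in IC. None passed in the edgeR quasi-likelihood test, which called 0.186% of all genes. At an unadjusted p under 0.05 DESeq2 counted 2 of the 10, Nr1d1 and Nr1d2, against 9.80% of all tested genes. The groups did not overlap for 2 of the 10, Nr1d1 and Cry1, against 15.8% of all tested genes. Since the genes were taken up with this contrast known, nothing is read from these shares. The log2 fold change was above 0 in 4 genes and below 0 in 6, with a median of −0.07 against −0.00187 over all tested genes.

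**Figure D2:**
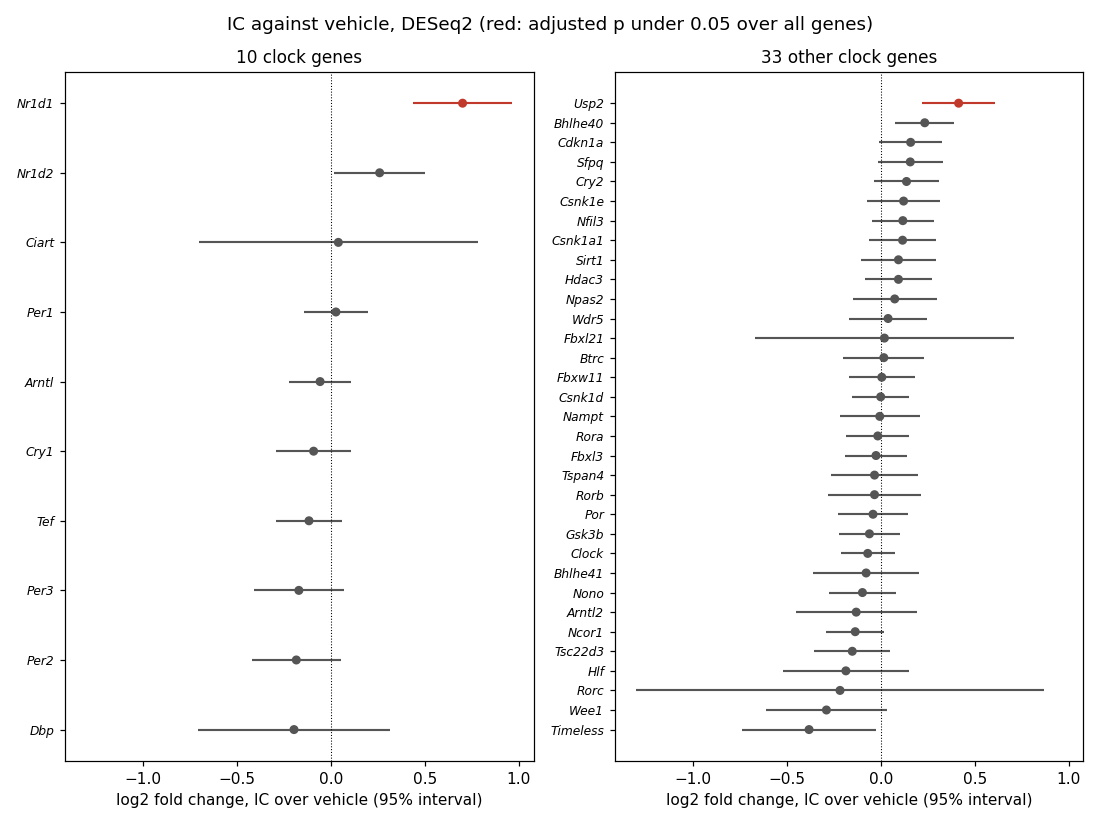
Log2 fold change of IC over vehicle from DESeq2 (x axis) for the 10 clock genes and for 33 other clock genes (y axis); points are estimates, bars are 95% intervals (1.96 SE on each side), and red marks an adjusted p under 0.05 over all tested genes. Nr1d1 at 0.70 and Usp2 at 0.41 are the only red points, and most of the others lie close to 0.

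The clock genes varied among libraries of 1 group as well as between groups. The coefficient of variation of Dbp was 36.0% among vehicle and 3.43% among IC libraries, and that of Ciart 37.9% and 12.9%. Nr1d1 itself varied by 16.4% among vehicle and 5.64% among IC libraries. In 6 of the 10 genes vehicle libraries were the more variable, and the median over 13435 genes with a mean of at least 100 was 10.3% in vehicle and 8.72% in IC libraries. Arntl was the steadiest in vehicle libraries, at 1.13%, and Tef in IC libraries, at 0.594%. Vehicle replicate 2 was the lowest of all 6 libraries for Nr1d2, Dbp, Per3 and Ciart, whereas vehicle replicate 3 was the highest for Dbp, Tef, Per3 and Cry1 and the lowest for Nr1d1. Vehicle replicate 2, the lowest for 4 of the genes, was the highest vehicle library for Nr1d1.

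**Figure D3:**
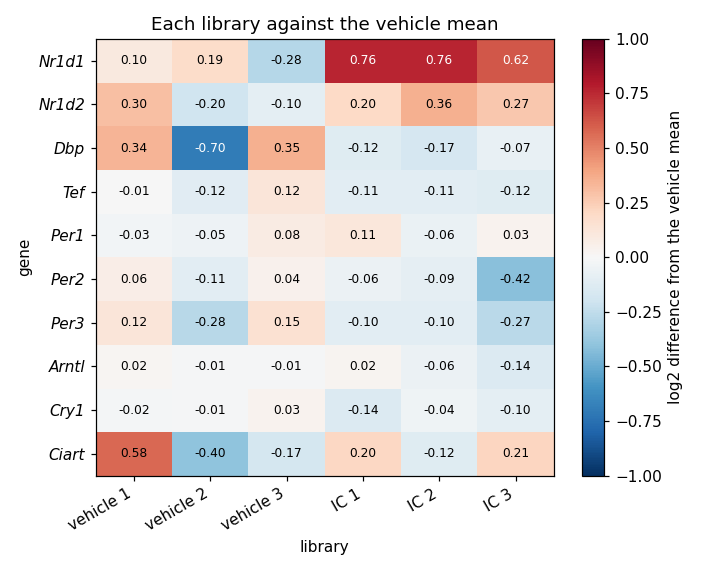
Log2 normalised count (pseudocount 1) of each clock gene (rows) in each library (columns) minus the mean of the log2 values of the 3 vehicle libraries. The value is printed in each cell, and the colour scale runs from −1 to 1. The 3 IC libraries are at 0.62 to 0.76 for Nr1d1, and vehicle replicate 2 stands out at −0.70 for Dbp and −0.40 for Ciart.

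Levels of different genes were compared as CPM per kilobase of exon. In vehicle libraries the order was Per1 at 19.6 ± 1.01 (SD, n = 3), Tef at 13.0, Nr1d2 at 13.0, Arntl at 12.4, Cry1 at 11.1, Nr1d1 at 8.05 ± 1.37, Per2 at 7.96, Per3 at 6.43, Dbp at 2.80 and Ciart at 0.970. Tef and Nr1d2, Nr1d2 and Arntl, and Nr1d1 and Per2 overlapped as neighbours in this order. In IC libraries Nr1d1 was at position 3 of 10, at 13.2 ± 0.851, after Per1 at 20.05 and Nr1d2 at 15.6, and it overlapped Tef at 12.1. Per1 lay at the 92.5th percentile of 23857 genes in vehicle libraries by this level, Nr1d1 at the 79.3rd and Ciart at the 42.0th. With the longest transcript in place of all exons, Nr1d1 was at position 7 in vehicle and 5 in IC libraries, so the order among the middle genes depends on the length used.

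**Figure D4:**
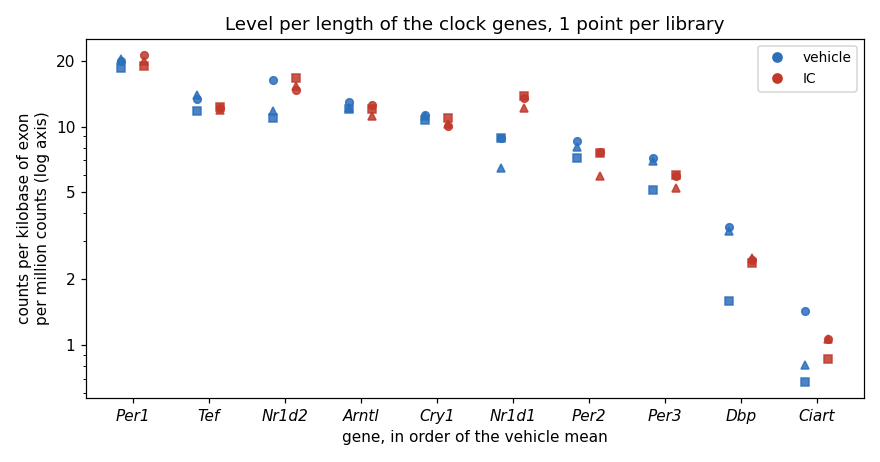
Level of each clock gene per library in CPM per kilobase of exon (y axis, log scale), ordered by the vehicle mean (x axis); blue points are vehicle and red points IC libraries, and shapes mark replicate numbers as circle 1, square 2 and triangle 3. Nr1d1 averages 8.05 in vehicle and 13.2 in IC libraries, and its points do not overlap between the groups, whereas those of Per1 and Ciart do.

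Beyond the 10 genes, 33 other genes of the clock were tested, and 1 was called higher and 0 lower by DESeq2 (adjusted p under 0.05), against 2.10% of all tested genes called. That gene was Usp2, which encodes a ubiquitin-specific protease with clock-controlled expression. It had 4269, 4662 and 4155 normalised counts in IC and 3416, 2943 and 3460 in vehicle libraries, with the groups apart and a log2 fold change of 0.41 (SE 0.098, DESeq2 adjusted p = 0.00245, edgeR adjusted p = 0.0964). Without IC replicate 2 Usp2 was not called. edgeR called 0 of the 33, and 3 had an unadjusted DESeq2 p under 0.05, a share near the 9.80% of all tested genes. The next by p were Bhlhe40, a repressor that competes for E-boxes, at a log2 fold change of 0.23 (DESeq2 adjusted p = 0.0920), Timeless at −0.38 (0.372), the cell cycle inhibitor Cdkn1a at 0.16 (0.492) and Sfpq at 0.16 (0.519). The 33 split into 15 above 0 and 18 below 0, with a median of −0.00498.

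None of the 3 other activators passed, and Clock, the partner of BMAL1, had 7031, 6669 and 6776 normalised counts in IC and 7199, 7217 and 7061 in vehicle libraries. Its groups lay apart by a small margin, with a log2 fold change of −0.07. The 3 ROR receptor genes, whose products activate Arntl at the elements where REV-ERB proteins repress it, had log2 fold changes from −0.22 to −0.02 and none was called. Of the other D-box factors, Hlf was at −0.19 and the repressor Nfil3 at 0.12, and neither was called. The same held for all 8 kinase and ubiquitin ligase genes, which lay between −0.06 and 0.12, and for all 6 corepressor and chromatin genes, among them Ncor1 at −0.14 and Hdac3 at 0.09, which encode the corepressor and deacetylase that REV-ERB proteins recruit.

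Among 7 genes reported here that REV-ERB receptors are known to repress, 1 was called higher and 0 lower by DESeq2. The list includes Arntl and Cry1. For comparison, 2.10% of all tested genes were called, 1.03% as higher in IC, and 15.8% had groups that did not overlap. The called gene was the cytokine gene Il6, with 9669, 8776 and 12711 normalised counts in IC and 8101, 6311 and 6940 in vehicle libraries (log2 fold change 0.55, SE 0.13, DESeq2 adjusted p = 0.00183, edgeR adjusted p = 0.152). The chemokine gene Ccl2 was at 0.74 (SE 0.28, DESeq2 adjusted p = 0.164), and its groups did not overlap. It had 3358, 2716 and 5086 normalised counts in IC and 2267, 2344 and 2062 in vehicle libraries, with IC replicate 3 the highest. Npas2 was at 0.07 and Nfil3 at 0.12, with Arntl, Clock and Cry1 between −0.09 and −0.06. This list was compiled with earlier results of these data known, and no gene in it is independent evidence about Nr1d1.

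The windows of 250 bases before RefSeq starts covered 9 of the 10 clock genes with 12 windows, and Per2 had no window. Both strands were searched, and no match overlapped another. The E-box CACGTG was in 5 of the 12 windows, those of Ciart, Cry1, Per1 and Tef, and in 6.02% of 32851 windows of all genes. The variant CACGTT was in the windows of Cry1 and Nr1d1 and in 3.85% of all windows. The D-box was in 2.06% of all windows, the ROR element NTAGGTCA in 2.22% and the cyclic AMP response element TGACGTCA in 1.55%, and of these the clock genes held only the D-boxes of Per3. Genes with an E-box and genes without were found on both sides of 0 in the comparison, with Ciart and Per1 above 0 and Cry1 and Tef below it. These are matches of letters in short windows, not sites of binding.

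By Pearson's r of log2 normalised counts over the 6 libraries, the genes most like Nr1d1 among 13434 were Amigo3 (0.991), the RNA-binding protein gene Hdlbp (0.986), Gm29358 (0.981), Itpkc (0.980) and Uhrf1bp1 (0.980), none of them a clock gene. The lowest r belonged to the helicase gene Ddx10 (−0.987), Clec1a (−0.984), Nat8f3 (−0.982), the matrilin gene Matn2 (−0.976) and Dcaf12l1 (−0.974). All 10 of these genes had groups that did not overlap, as Nr1d1 had, so r here also holds the gap between the groups. Within the set of 10 clock genes, the closest to Nr1d1 was Nr1d2, at 0.645 and position 1401 of 13434. Tef and Cry1 were at −0.846 and −0.842.

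Some markers of other cell types were lower in IC libraries, where Nr1d1 was higher. Over all tested genes 2.10% were called by DESeq2 in either direction. The summed level of 6 endothelial markers was 176 to 226 CPM in IC and 230 to 265 CPM in vehicle libraries, with 2 of the 6 called lower. Most of this sum came from Tek, at 120 to 139 CPM in IC and 135 to 141 CPM in vehicle libraries, and its groups overlapped. The 8 skeletal muscle markers summed to 14.2 to 28.4 CPM in IC and 24.4 to 57.4 CPM in vehicle libraries, with 2 of the 8 called lower. For 5 mural cell markers the sums were 388 to 467 and 453 to 481 CPM, with 1 called lower. The 3 adipocyte markers in the table summed to 0.321 to 0.719 and 1.05 to 1.37 CPM, with none called and Adipoq at 0 in 1 library. Macrophage markers (3 of 6 in the table) ranged from 23.3 to 35.0 and 25.9 to 31.4 CPM, and 4 Schwann cell markers from 14.8 to 92.9 and 22.4 to 69.7 CPM, with none called. Nearly all of the macrophage sum was Cd68, at 21.9 to 31.4 CPM in IC and 22.6 to 28.7 CPM in vehicle libraries. The part of these cells in the values of the clock genes was not tested, and in bulk RNA fewer cells of a type and less RNA per cell cannot be told apart.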

How the data were processed

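Reads per gene were deposited by the authors as raw counts for 3 IC and 3 vehicle libraries, in a table whose columns were identical to the 6 per-sample files. The submitters' processing notes name Trim Galore, FastQC, HISAT2, featureCounts and mm10, with versions and gene annotation not given in the sources used here. The labels name an Illumina stranded total RNA kit and the study's methods a SMARTer kit, and the methods also mention removal of batch effects with sva, although the labels give no batch.

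A gene was tested where 3 or more libraries had 10 or more counts, and the 4423 genes left out held 0.0429% of counts. IC was compared with vehicle by the DESeq2 (1.42.0) Wald test in R 4.3.3 with treatment as the only term, as the study's methods name DESeq2. Settings were the defaults, except that independent filtering was set for a threshold of 0.05. A call required an adjusted p (Benjamini-Hochberg) under 0.05. DESeq2 gave none to 3870 genes. Log2 fold changes are unshrunken. Totals of 40114331 to 56714304 counts leave counting error small for most of the clock genes, so the number of libraries limits the precision. The fits were tested on simulated data. DESeq2 recovered more of the changed genes there than edgeR but also made a larger share of false calls, above the threshold set. Counts were drawn with dispersions estimated by edgeR. Every changed gene had a mean of at least 100 and a larger change than any clock gene here. The ranking of the tests was therefore not examined for changes as small as those of the clock genes. Alternatives were edgeR 4.0.16, limma-voom 3.58.1, TMM and total-count scaling, no count filter, no independent filtering, a minimum mean of 100, 1 surrogate variable (sva 3.50.0), a replicate block, and each library left out.

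The clock genes, the other lists and the alternatives were chosen with earlier results of these data known. Named were all 10 clock genes, the called other clock genes filled up to 5 by p, the 5 genes with the highest and the 5 with the lowest r to Nr1d1 among tested genes with a mean of at least 100 (pseudocount 1), and the listed glucocorticoid-induced, immediate early and REV-ERB-repressed genes. A further gene fixed in the last list is not reported here, so the count given for that list covers only part of it. Positions and exon lengths came from GENCODE M21 on GRCm38, the assembly that mm10 names, matched by symbol for 23857 genes (98.0%). Sequences came from RefSeq windows on GRCm38.p6, searched over the 250 bases before each start, and were printed without bases that lie in annotated exons.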

Additional observations from a re-analysis of the deposited data

How the results depend on the processing

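Of 160 log2 fold changes (10 clock genes under 16 alternatives), 154 kept their direction and 151 also their side of the threshold. Nr1d1 stayed above 0 in all 16 and was called in 14, all of them DESeq2 fits except limma-voom (adjusted p = 0.0416). It was not called by edgeR (adjusted p = 0.0541) or by edgeR with a replicate block (0.0718), and without each library in turn its DESeq2 adjusted p ran from 1.51e-05 to 0.00553. Nr1d2 was called only without vehicle replicate 1 (0.42, DESeq2 adjusted p = 0.000637). Ciart changed sign with 1 surrogate variable (−0.12) and between −0.15 and 0.40 with libraries left out, and Per1 ran from −0.017 to 0.071 with libraries left out. The cause was not tested. The 419 genes called by DESeq2 (205 higher, 214 lower) became 37 with edgeR (12 higher, 25 lower), 62 with limma-voom (25 and 37) and 22 with edgeR and a replicate block (7 and 15). With libraries left out they ran from 281 to 677, the highest without vehicle replicate 1. Among the 10 clock genes edgeR called 0 and edgeR with the replicate block 0, against 1 to 2 with libraries left out. Among the 33 other clock genes edgeR, limma-voom and edgeR with the replicate block each called 0, against 0 (without IC replicate 2) to 2 with libraries left out. At an unadjusted p under 0.05 DESeq2 counted 2 of the 10 and 3 of the 33, against 9.80% of all tested genes. DESeq2 with the replicate block called 320 genes. Same-numbered libraries did not deviate together over 13435 genes (correlations −0.0918, −0.164 and 0.0250), so the numbers were not taken as pairs.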

Other observations

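Among genes induced by glucocorticoids, hormones that also reset the clock in peripheral tissues, 1 of 7 was called higher and 1 lower by DESeq2. The shares over all tested genes were 2.10% called, 1.03% called higher in IC, and 15.8% with groups that did not overlap. This list too was compiled with earlier results of these data known, so nothing is read from its counts. The transcription factor gene Zbtb16 had a log2 fold change of 0.40 (SE 0.12, DESeq2 adjusted p = 0.0455, edgeR adjusted p = 0.261), with 4780, 5289 and 3912 normalised counts in IC and 3195, 3315 and 4057 in vehicle libraries. Klf9 was at −0.31 (SE 0.075, DESeq2 adjusted p = 0.00436, edgeR adjusted p = 0.129), with 11557, 11507 and 11061 in IC and 13181, 14743 and 14238 in vehicle libraries. Every IC library was lower than every vehicle library for Klf9, whereas the groups overlapped for Zbtb16. Fkbp5 was at 0.36 (DESeq2 adjusted p = 0.179), and Tsc22d3, which was also among the 33 other clock genes, at −0.15 (0.670). Sgk1, Errfi1 and Ddit4 lay between −0.08 and 0.11. The list had a median of 0.11 and did not share a direction.

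Of 7 immediate early genes, 2 were called higher and 0 lower by DESeq2. Such genes respond within minutes to stimuli and to the handling of tissue. Over all tested genes 2.10% were called, 1.03% as higher in IC, and 15.8% had groups that did not overlap. The list was compiled with earlier results of these data known, so nothing is read from these counts. Fosb was at 0.28 (SE 0.067, DESeq2 adjusted p = 0.00350, edgeR adjusted p = 0.152) and the nuclear receptor gene Nr4a1 at 0.27 (SE 0.068, DESeq2 adjusted p = 0.00637, edgeR adjusted p = 0.178), and the groups did not overlap for either. Atf3 was at 0.12 with its groups apart and was not called (DESeq2 adjusted p = 0.450). Fos, Junb, Egr1 and Ier2 lay between −0.07 and 0.11.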
